A study of Mus musculus with 8 samples.

Results

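The 217 genes described here are the T cell receptor genes of a mouse RNA sequencing table of 37411 genes. They were chosen by symbol alone, as every row that begins with Trav, Traj, Trbv, Trbj, Trgv, Trgj, Trdv or Tcrg-, plus Trac, Trbc1, Trbc2 and Trdc. They comprised 108 alpha variable segments (Trav), 51 alpha joining segments (Traj), 22 beta variable segments (Trbv), 13 beta joining segments (Trbj), 10 gamma segments, 5 delta variable segments and 8 constant genes. All 217 symbols were found in the GENCODE vM21 annotation of GRCm38, which places the alpha and delta genes on chromosome 14, the beta genes on chromosome 6 and the gamma genes on chromosome 13.

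The RNA came from sorted CD4+ effector T cells with a congenic marker, about 10000 per library, that had been transduced with the LMPd retrovirus and transferred into Rag1-/- hosts on a C57BL/6 background. A Rag1-/- mouse makes no T or B cells of its own, so the hosts of every group lacked them. Cells were taken 6 weeks after transfer from the small intestine (lamina propria) or the spleen. They carried shMdr1, a hairpin against the multidrug transporter Mdr1, or the control hairpin shCD8. The hosts were Asbt-/- or Asbt+/+, Asbt (Slc10a2) being the protein that takes up bile acids in the ileum. Each combination of tissue, hairpin and host had 1 library, which gives 8 libraries and 4 for each level of a factor. The hairpin was read from the sample titles, because the retrovirus label names shMdr1 for all 8. Whether each library had its own donor mouse or host is not in the labels, so p-values reflect how far single libraries scatter, some of which may be technical. As no combination has a replicate, that scatter also holds any dependence of 1 factor's effect on another.

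A conventional T cell receptor is a pair of an alpha and a beta chain. Each chain is encoded by a variable and a joining segment, in the beta chain with a diversity segment between them, recombined in the thymus and spliced to a constant region. A T cell and all its descendants keep the same recombined segments, so segment use in a bulk library follows which clones are abundant as well as how much receptor RNA each cell holds. In a second lineage, gamma delta T cells, the receptor is built from gamma and delta chains. Gamma loci can also be rearranged and transcribed in alpha beta T cells. In bulk RNA, fewer cells of a type and less RNA per cell cannot be told apart.

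The sequences of the joining segments that took the most Traj reads, and of the leading Trbj segment, are given because joining segments are the shortest members (46 to 66 bases) and their counts rest on few positions. They were read from GENCODE vM21 transcripts (GRCm38), on the sense strand. Capitals mark the motif TTTGGNNNNGG or TTCGGNNNNGG, which encodes the phenylalanine-glycine-any-glycine turn typical of joining regions.
Traj18: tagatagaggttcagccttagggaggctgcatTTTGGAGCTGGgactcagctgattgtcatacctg
Traj27: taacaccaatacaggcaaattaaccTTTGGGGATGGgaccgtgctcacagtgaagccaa
Traj19: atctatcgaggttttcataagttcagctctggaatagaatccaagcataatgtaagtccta
Traj49: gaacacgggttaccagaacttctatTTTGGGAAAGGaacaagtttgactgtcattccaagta
Trbj2-1: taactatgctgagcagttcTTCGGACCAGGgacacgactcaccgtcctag

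The motif was found in 42 of 51 Traj segments (82.4%) and in 11 of 13 Trbj segments (84.6%), searched on the sense strand. Traj19 does not hold it, and was among the segments with the most Traj reads.

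The beta constant genes Trbc1 and Trbc2 are shown because they hold most of the receptor reads and are nearly identical, so that a read can be credited to the wrong copy. Over 518 coding bases they differ at 23, an identity of 95.6%. Only 1 of these differences lies in the first 375 bases, the first exon, while 17 lie in bases 376 to 495, which follow with the differing bases in capitals.
Trbc1: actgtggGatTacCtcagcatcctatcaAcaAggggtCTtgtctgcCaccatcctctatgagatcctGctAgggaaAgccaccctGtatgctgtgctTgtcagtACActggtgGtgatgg
Trbc2: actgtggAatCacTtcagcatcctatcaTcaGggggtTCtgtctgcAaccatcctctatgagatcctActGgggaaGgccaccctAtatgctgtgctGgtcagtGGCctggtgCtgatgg

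Library totals were 1685225 to 2767105 counts, and the receptor genes held 0.139 to 0.282% of them, 32775 counts in all. At least 1 count was found for 149 of the 217 genes, and for 17 in every library. The constant genes took 28153 counts, 85.9% of the receptor total, and the variable and joining segments shared the rest. A count filter over all genes kept 10000, of which 29 were receptor genes, and only those 29 entered the tests. The shCD8 Asbt+/+ small intestine library stood apart, with 8456 genes detected against 11345 to 13184 in the other 7, and with counts for 36 receptor genes against 61 to 91. Mitochondrial genes held 26.8% of counts in the shMdr1 Asbt-/- spleen library, 18.3% in the shMdr1 Asbt+/+ small intestine library and 17.6% in the shCD8 Asbt-/- spleen library, against 6.63 to 8.62% in the other 5. Markers of CD4 T cells were present in all 8 libraries, with 223 to 593 counts of Cd4 and 360 to 1148 of Cd3e, a chain of the receptor's CD3 signalling complex. Levels are given in CPM, counts scaled to a library of 1000000 with TMM factors, which adjust library sizes for composition. Hemoglobin and neutrophil transcripts marked the spleen libraries: summed erythroid markers were at 38.3 to 104.9 CPM in small intestine and 1089 to 41439 CPM in spleen, and summed neutrophil markers at 10.7 to 180.4 CPM in small intestine and 819 to 7400.0 CPM in spleen.

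Trac, the constant region of the alpha chain, was read in every library. Among cells of the small intestine, shMdr1 cells had 86.4 CPM and shCD8 cells 211 CPM in Asbt-/- hosts, and shMdr1 cells 181 CPM and shCD8 cells 88.3 CPM in Asbt+/+ hosts. In spleen the 4 values were 116, 69.0, 82.0 and 48.6 CPM in the same order of hairpin and host. The tissues overlapped, and small intestine was higher in 3 of 4 matched library pairs.

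Trbc2 had the most counts of any receptor gene in all 8 libraries. It was at 966, 1540, 894 and 1147 CPM in small intestine and 804, 1029, 966 and 1085 CPM in spleen, in the order shMdr1 Asbt-/-, shCD8 Asbt-/-, shMdr1 Asbt+/+ and shCD8 Asbt+/+, which is kept below wherever 4 values of a tissue follow each other. Trbc1 was at 335, 352, 137 and 219 CPM in small intestine and 249, 269, 197 and 256 CPM in spleen. Per kilobase of annotated transcript, Trbc2 levels of 1162 to 2225 CPM per kb lay above Trac levels of 52.0 to 225 in every library. Between 56.0 and 58.9% of the 50-base windows of Trbc2 and Trbc1 occur in no other annotated gene, so the split between the copies is uncertain.

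Trbc1 took 25.7, 18.6, 13.3 and 16.05% of the Trbc reads in small intestine and 23.7, 20.7, 17.0 and 19.1% in spleen. In the mouse locus the Trbj1 cluster lies before Trbc1 and the Trbj2 cluster before Trbc2, and rearranged Trbj2 segments are spliced to Trbc2. Trbj1 segments made up 39.5, 26.7, 22.2 and 51.9% of Trbj reads in the shMdr1 libraries and 55.9, 64.3, 62.1 and 59.4% in the shCD8 libraries, each list running Asbt-/- small intestine, Asbt+/+ small intestine, Asbt-/- spleen and Asbt+/+ spleen. The shMdr1 and shCD8 shares did not overlap, but they rest on 14 to 43 Trbj reads per library, and the 95% Wilson intervals overlapped in all 4 matched pairs. The overlap was smallest in Asbt-/- spleen, with 9.001 to 45.2% for shMdr1 and 44.0 to 77.3% for shCD8. In Asbt+/+ small intestine the intervals were 10.9 to 52.0% for shMdr1 and 38.8 to 83.7% for shCD8, and in Asbt+/+ spleen 34.0 to 69.3% for shMdr1 and 42.3 to 74.5% for shCD8. Such intervals cover counting error only, since the reads carry no molecular identifiers.

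**Figure D1:**
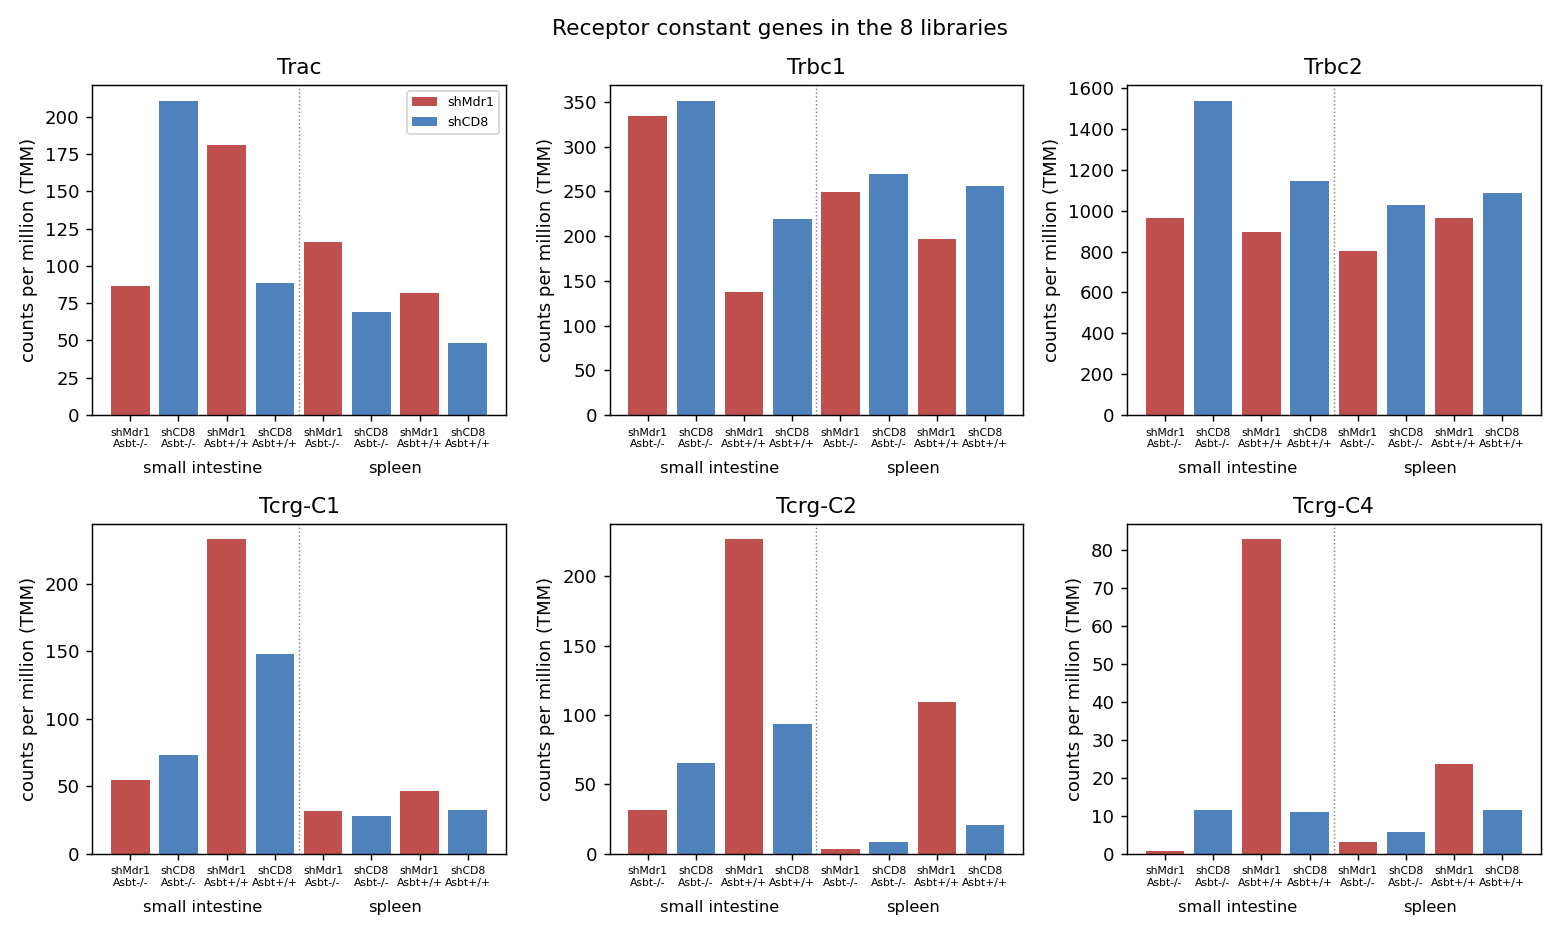
Levels in CPM of 6 constant genes in each of the 8 libraries, small intestine left of spleen, with shMdr1 in red and shCD8 in blue. Tcrg-C1 is at 54.7 to 233 CPM in small intestine and 28.3 to 46.2 CPM in spleen, and Tcrg-C2 and Tcrg-C4 peak in the shMdr1 Asbt+/+ small intestine library.

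Constant genes of the gamma chain were read in every library. Tcrg-C1 was at 54.7, 73.0, 233 and 148 CPM in small intestine and 31.4, 28.3, 46.2 and 32.7 CPM in spleen, so that the lowest small intestine library lay above the highest spleen library. Tcrg-C2 was at 31.3, 65.0, 227 and 93.9 CPM in small intestine and 3.08, 8.14, 109 and 20.6 CPM in spleen. It was higher in small intestine in all 4 matched pairs, but the shMdr1 Asbt+/+ spleen library overlapped the small intestine range. Tcrg-C4 was at 0.792, 11.6, 82.8 and 11.04 CPM in small intestine and 3.08, 5.75, 23.7 and 11.6 CPM in spleen, with no order between the tissues. Tcrg-C3, a near copy of Tcrg-C1, had 6 counts in all.

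Set against the beta chain, gamma constant genes had 6.67, 7.91, 52.6 and 18.5 counts per 100 Trbc counts in small intestine and 3.57, 3.25, 15.5 and 5 in spleen. The shMdr1 Asbt+/+ library was the highest in both tissues. The gamma variable segment Trgv2 followed the same libraries, with 72 counts in shMdr1 Asbt+/+ small intestine and 24 in shMdr1 Asbt+/+ spleen, against 1 to 16 in the other 6. Tcrg-V7 had 26 counts, all of them in shMdr1 Asbt+/+ small intestine.

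Delta genes had few counts. Trdc, the delta constant region, had 4 counts in shCD8 Asbt-/- small intestine, 2 in shMdr1 Asbt-/- spleen, 5 in shCD8 Asbt+/+ spleen and none in the other 5 libraries, where 0 counts allow up to 1.18 to 1.93 CPM. The delta variable segments had 30 counts in all, led by Trdv2-2 with 14 and Trdv1 with 12. In the library with the most gamma reads, shMdr1 Asbt+/+ small intestine, neither Trdc nor any Trdv segment had a count. Segments with dv in their symbol, such as Trav14d-3-dv8, were counted as alpha variable segments.

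Other genes on the list of gamma delta T cell markers were uneven. Sox13, a transcription factor of that lineage, had no count in any library. Blk, a Src family kinase, had 22 counts in shMdr1 Asbt+/+ small intestine and 0 to 5 elsewhere, and Cd163l1, a scavenger receptor family member, had 56 counts in shCD8 Asbt+/+ small intestine and 0 to 22 elsewhere. The summed list of 7 genes, 3 of which are gamma constant genes, was at 86.8 to 561 CPM in small intestine and 42.5 to 190.2 CPM in spleen. Cd8a, a coreceptor chain, was at 27.7, 22.7, 96.3 and 0 CPM in small intestine and 0, 0, 12.9 and 3.01 CPM in spleen, again highest in shMdr1 Asbt+/+ within each tissue. The control hairpin shCD8 is by its name directed at CD8, so Cd8a is not an independent marker of these cells between hairpins. The part of such cells in the gamma constant levels was not tested.

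Many alpha variable segments were read mainly in 1 library. Of 16 Trav segments with at least 20 counts, 9 had over 50% of them in 1 library, as had 2 of 3 gamma segments (Trgv2 and Tcrg-V7), against 0 of 5 Traj, 0 of 16 Trbv and 0 of 4 Trbj segments. The classes were not matched for depth: these Trav segments had 20 to 105 counts each and these Trbv segments 26 to 927. Low totals make a majority in 1 library easier to reach, and the part of depth was not tested. Trav7-6 had 75, 2, 0 and 0 counts in small intestine and 24, 4, 0 and 0 in spleen, so it was read in the Asbt-/- libraries only and was high in the shMdr1 Asbt-/- library of both tissues. Trav16 had 24 counts in shMdr1 Asbt+/+ small intestine and 11 in shMdr1 Asbt-/- spleen, against 0 or 1 in the other 6. Trav9-4 had 32 of its 37 counts in shCD8 Asbt+/+ small intestine, and Trav14-3 had 28 of its 46 in shCD8 Asbt-/- small intestine. Trav3-3 had the highest mean share of Trav reads, 9.19 ± 7.64% (SD over 8 libraries), and ranged from 1.23 to 23.1%.

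In 3 of the 4 small intestine libraries 1 segment took a large share of the Trav reads. Trav7-6 made up 48.1% of Trav reads in shMdr1 Asbt-/- (95% Wilson interval 40.4 to 55.9%), Trav16 44.4% in shMdr1 Asbt+/+ (32.0 to 57.6%) and Trav9-4 39.5% in shCD8 Asbt+/+ (29.6 to 50.4%). The largest share was 14.6% in shCD8 Asbt-/- small intestine and 11.2 to 19.5% in spleen. The inverse Simpson number, the number of equally used segments that would give the same chance that a pair of reads shares its segment, was 3.46, 18.0, 4.15 and 3.96 in small intestine and 17.3, 22.6, 14.7 and 20.6 in spleen. Drawn down to 54 Trav reads in each library, 10.4, 21.8, 12 and 7.26 segments were expected in small intestine and 22.3, 25.2, 21.0 and 22.9 in spleen. The inverse Simpson numbers depend on segments with few reads. With segments of at least 10 counts in a library only, the inverse Simpson number was 1.79, 5.55, 1 and 2.77 in small intestine and 2.63, 1, 1 and 1 in spleen. A value of 1 means that only 1 segment of that library reached 10 counts. The numbers under this limit therefore cannot tell whether the order of the tissues holds. With all segments counted, the shCD8 Asbt-/- small intestine library lay within the spleen range by share and number, and the tissues overlapped.

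**Figure D2:**
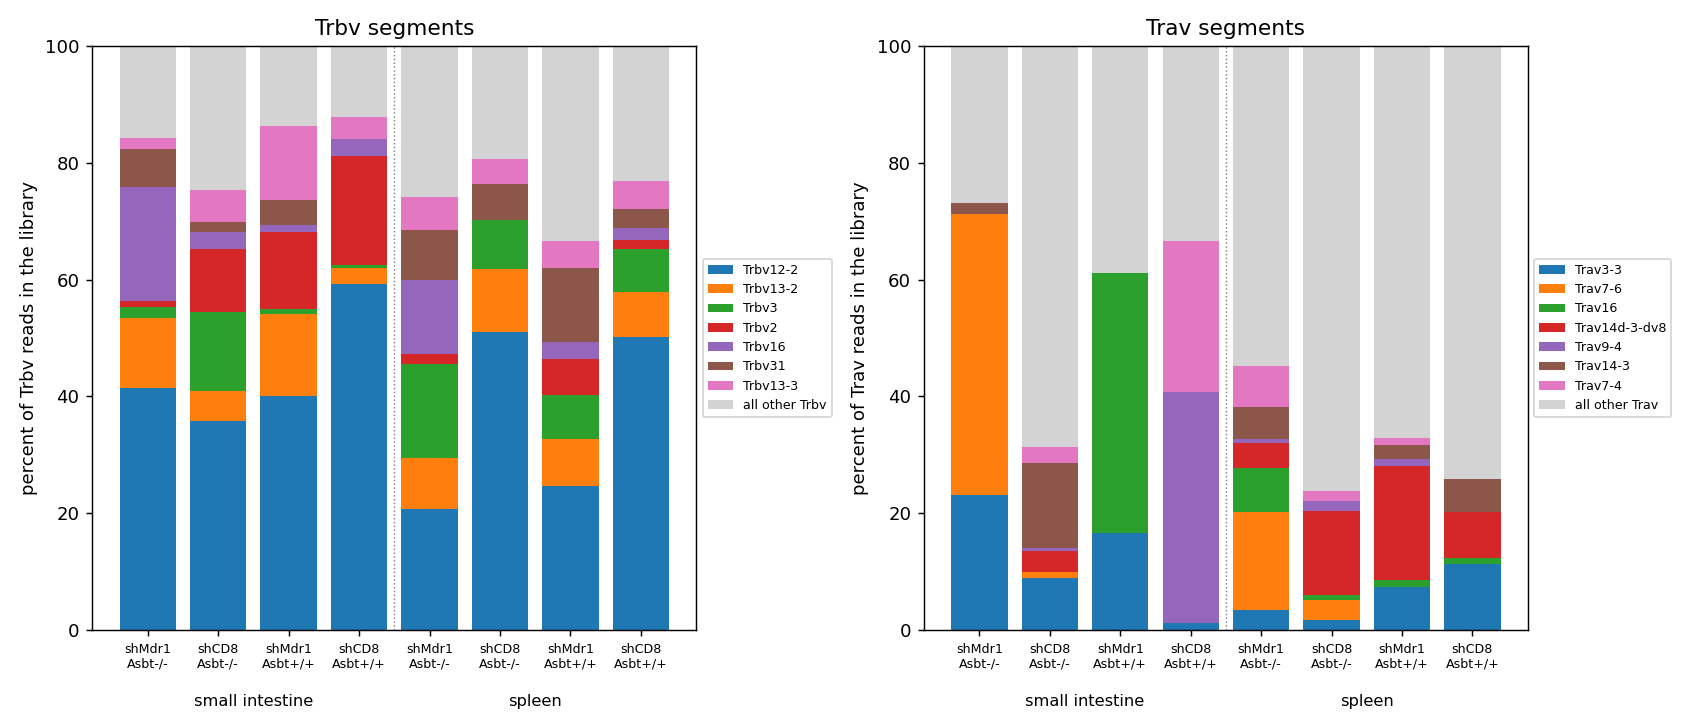
Percent of Trbv reads (left) and Trav reads (right) taken by 7 segments of each class in each of the 8 libraries, small intestine left of spleen, with all other segments in grey. Trbv12-2 leads the Trbv reads in all 8 libraries, while a different Trav segment leads in each of the 4 small intestine libraries.

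Many Trav segments have near-identical copies, which bears on their counts. Of 108 Trav segments, 36 share every 50-base window with another annotated gene, and all 36 had 0 counts. Of 31 with a share of unique windows above 0 and under 50%, 22 had a count, and of 41 with 50% or more, 33 had one. Among the segments named above the share of unique windows was 56.9% for Trav7-6, 51.8% for Trav16, 44.2% for Trav9-4, 43.3% for Trav14-3 and 60% for Trav3-3. Trbv segments were less affected, with 20 of 22 at 50% or more and all 22 with a count.

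**Figure D3:**
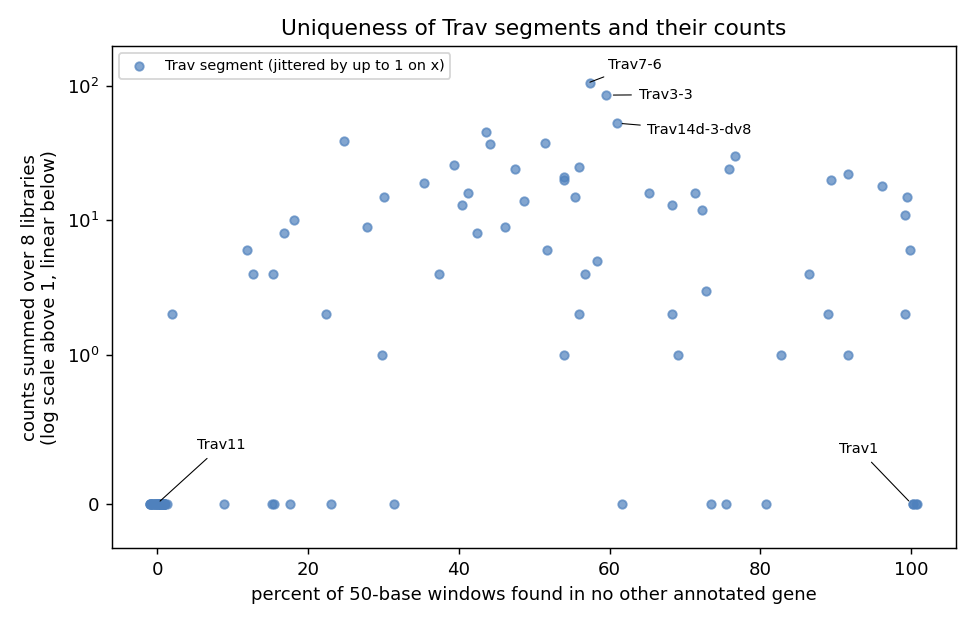
Counts summed over the 8 libraries (log scale above 1) against the percent of 50-base windows found in no other annotated gene, for the 108 Trav segments. All 36 segments with no unique window lie at 0 counts, and Trav7-6 has the most counts, 105.

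Segments of invariant receptors were examined by name. Invariant NKT cells pair Trav11 with Traj18, and MAIT cells pair Trav1 with Traj33. Trav11 and its copy Trav11d had no count, but neither has a unique 50-base window, so no reading follows from that. Trav1, all of whose windows are unique, had no count either, and Traj33 had 6. Zbtb16, the transcription factor of both lineages, had no count in any library.

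Traj18 led the Traj reads in 7 of 8 libraries. It had 39, 49, 30 and 19 counts in small intestine and 38, 53, 46 and 33 in spleen, which is 26.8 to 45.1% of Traj reads. Traj19 led in shCD8 Asbt+/+ small intestine, with 21 of 71 Traj reads. Traj27 had 31, 30, 6 and 15 counts in small intestine and 17, 33, 20 and 11 in spleen, and Traj49 had 15, 42, 1 and 0 in small intestine and 7, 12, 8 and 5 in spleen. Traj27 and Traj49 hold the joining motif printed above, as does Traj18, and Traj19 does not.

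Trbv12-2 led the Trbv reads in all 8 libraries. Its share was 41.4, 35.7, 40.1 and 59.2% in small intestine and 20.7, 51.0, 24.7 and 50.2% in spleen. In spleen both shMdr1 libraries lay below both shCD8 libraries, and the Wilson intervals of 16.5 to 25.6% and 19.6 to 30.5% did not reach those of 45.3 to 56.8% and 44.0 to 56.4%. In small intestine the shMdr1 shares lay between the shCD8 shares. Trbv13-2 came next by mean share, at 2.82 to 14.0%. Trbv3 had 4, 84, 2 and 1 counts in small intestine and 49, 24, 18 and 18 in spleen, and Trbv2 had 2, 67, 32 and 40 in small intestine and 5, 0, 15 and 4 in spleen.

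Libraries shared Trbv and Traj use to a larger extent than Trav use. Over the 28 pairs of libraries, the summed overlap of shares had a median of 64.7% for Trbv, 63.1% for Traj, 47.4% for Trbj and 22.4% for Trav. Pairs that matched in hairpin and host and differed in tissue had medians of 64.1% for Trbv and 24.8% for Trav. These classes differ in the number of segments and of reads, which also moves the overlap, and the part of each was not tested.

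The comparison of small intestine with spleen addressed which genes differ between effector cells of the 2 sites. Gamma constant genes were the receptor genes with the smallest p. Tcrg-C1 averaged 127 ± 81.3 CPM in small intestine and 34.6 ± 7.94 CPM in spleen (SD, n = 4 libraries each), a log2 fold change of 1.701 ± 0.35 (SE). It was higher in 4 of 4 matched pairs, and edgeR's quasi-likelihood test gave an adjusted p of 0.0670. Tcrg-C2 averaged 104 ± 85.5 CPM in small intestine and 35.3 ± 49.97 CPM in spleen, with a log2 fold change of 2.13 ± 0.63 and an edgeR adjusted p of 0.281. Neither passed the threshold of 0.05.

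None of the 29 tested receptor genes passed edgeR's adjusted threshold for tissue, against 0.62% of the 10000 genes tested. At an unadjusted p under 0.05 there were 4, all higher in small intestine (13.8%, against 8.45% of all genes). They were Tcrg-C1, Tcrg-C2, Trac with 0.91 ± 0.37 and Trgv2 with 2.62 ± 1.17. DESeq2's Wald test called Tcrg-C1 and Tcrg-C2, 2 of 31 receptor genes it adjusted, against 2.62% of all genes. Tcrg-C1 and Trav14d-3-dv8 were the 2 of 29 whose tissues did not overlap, against 8.07% of all genes. Trav14d-3-dv8 had 0, 7, 0 and 0 counts in small intestine and 6, 17, 16 and 7 in spleen, and its edgeR adjusted p was 0.643. It passed the count filter through spleen libraries only, the tissue in which it was higher, so its lack of overlap is a description only. The beta constant genes had log2 fold changes of 0.02 ± 0.26 for Trbc1 and 0.20 ± 0.25 for Trbc2. Over the 29 genes the median log2 fold change was 0.18, against -0.17 over all genes.

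The Tcrg-C1 call depended on the libraries. Without the shCD8 Asbt+/+ small intestine library, the one with few genes detected, the edgeR adjusted p was 0.0321, and without the shMdr1 Asbt-/- small intestine library it was 0.0494. Without both Asbt+/+ small intestine libraries the log2 fold change was 1.10 and the adjusted p 0.287. Over all alternatives the adjusted p ranged from 0.00412 to 0.350. Markers of natural killer and innate lymphoid cells were at 229.8 to 569 CPM summed over 8 genes in small intestine and 116 to 405 CPM in spleen. Among these genes Ncr1 had no count in any library, while Tyrobp had 55 to 704 counts and Fcer1g 51 to 486. Markers of myeloid and antigen-presenting cells did not overlap between the tissues, at 449 to 889 CPM summed over 7 genes in small intestine and 154 to 442 CPM in spleen. Of these, 2 of the 6 tested passed edgeR's adjusted threshold, both antigen presentation genes and both higher in small intestine: Cd74 with 2.13 ± 0.34 (adjusted p 0.0198) and H2-Aa with 2.46 ± 0.45 (adjusted p 0.0355). Lyz2, Cd68, Csf1r and Adgre1 did not pass, with log2 fold changes of 0.57 ± 0.51, 0.78 ± 1.49, 0.69 ± 1.81 and -1.91 ± 2.95. The part of either cell group in the gamma constant levels was not tested.

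**Figure D4:**
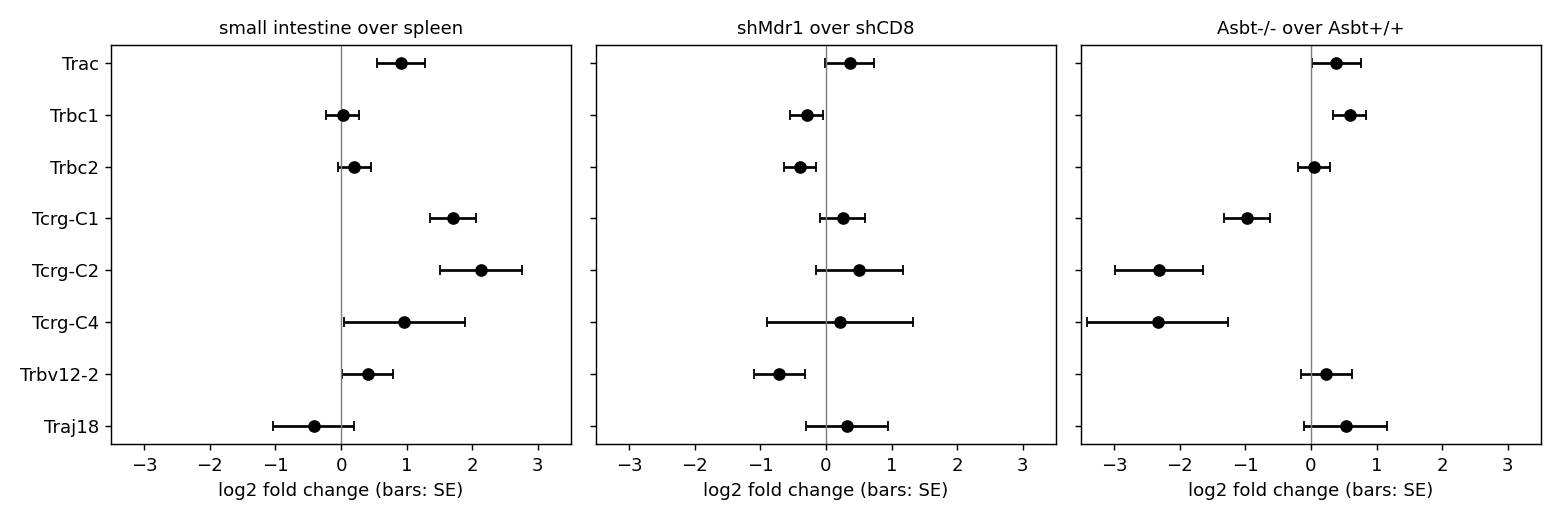
Log2 fold changes of 8 receptor genes in the 3 comparisons, each point with its SE, from the additive fit of all 8 libraries. Tcrg-C1 and Tcrg-C2 lie to the right in small intestine over spleen and to the left in Asbt-/- over Asbt+/+, while Trbc2 and Trbv12-2 lie to the left in shMdr1 over shCD8, and no point passed the adjusted threshold.

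The comparison of shMdr1 with shCD8 addressed what a hairpin against the transporter does to the cells. No receptor gene passed the test between the hairpins. Trbc2 was at 966, 894, 804 and 966 CPM in the shMdr1 libraries and 1540, 1147, 1029 and 1085 CPM in the shCD8 libraries, so the hairpins did not overlap. Its log2 fold change was -0.39 ± 0.25 with an edgeR adjusted p of 0.999. Trbc1 had -0.29 ± 0.25, lower in all 4 matched pairs, and Trbv12-2 had -0.71 ± 0.39. The segments with the smallest p in the other direction were Trav16 with 4.48 ± 2.06, Trav7-6 with 3.52 ± 1.75 and Trbv31 with 1.701 ± 1.21. Trav16 and Trav7-6 were high in only some shMdr1 libraries, as given above, and passed the count filter through those alone. Trav7-6 had no count in the shMdr1 Asbt+/+ library of either tissue.

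In edgeR 0 of the 29 receptor genes passed for hairpin, as did 0% of all genes. None had an unadjusted p under 0.05 in edgeR, against 2.99% of all genes, and none was called by DESeq2 among 149, against 0.0228%. Trbc2 was the only 1 of 29 whose hairpin groups did not overlap (3.45%, against 2.79% of all genes).

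The comparison of Asbt-/- with Asbt+/+ hosts addressed whether bile acid uptake in the ileum matters to the cells. No receptor gene passed the test between the hosts, and gamma constant genes had the smallest p among those with lower levels in Asbt-/- hosts. Tcrg-C2 averaged 26.9 ± 28.2 CPM in Asbt-/- hosts and 113 ± 85.3 CPM in Asbt+/+ hosts (SD, n = 4 libraries each), lower in 4 of 4 matched pairs, with a log2 fold change of -2.32 ± 0.68. Tcrg-C1 averaged 46.8 ± 21.1 CPM in Asbt-/- hosts and 115 ± 94.1 CPM in Asbt+/+ hosts, also lower in 4 of 4 pairs, with -0.98 ± 0.35. Tcrg-C4 had -2.34 ± 1.07 and Trbc1 0.59 ± 0.26. The edgeR adjusted p was 0.996 for each of these 4 genes.

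Markers of some other cells had lower values in Asbt-/- hosts too. Epithelial markers, summed over 6 genes, were at 0 to 8.14 CPM in Asbt-/- hosts and 9.89 to 94.4 CPM in Asbt+/+ hosts, with no overlap, and all 4 that were tested had negative log2 fold changes. Neutrophil markers, summed over 5 genes, were at 10.7 to 2986 CPM in Asbt-/- hosts and 111 to 7400.0 CPM in Asbt+/+ hosts, and overlapped. Krt8, an epithelial keratin, had a log2 fold change of -8.11 ± 1.92. It had no count in any Asbt-/- library, so the size of that change is not measured. In Asbt+/+ hosts Krt8 had 23 and 33 counts in small intestine and 81 and 2 in spleen, shMdr1 first. S100a8, a calcium-binding protein of neutrophils, had -2.38 ± 0.53, and Kit, a receptor of progenitors and some innate lymphoid cells, -2.76 ± 1.09. Kit did not stand for its list: of 6 natural killer and innate lymphoid markers tested, 3 had positive log2 fold changes, and the median was 0.03. Of 4 erythroid markers tested, 3 had positive log2 fold changes, with a median of 1.22. In edgeR 0 of the epithelial, neutrophil and innate lymphoid markers passed for host, each with an adjusted p of 0.996 or above, and 2 epithelial, 3 neutrophil and 1 innate lymphoid marker were lower at an unadjusted p under 0.05. Their part in the gamma constant levels was not tested.

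In edgeR 0 of the 29 receptor genes passed for host, as did 0% of all genes. At an unadjusted p under 0.05 there were 5, of which Trav7-6, Trbc1 and Trbv3 were higher and Tcrg-C1 and Tcrg-C2 lower in Asbt-/- hosts (17.2%, against 2.71% of all genes). DESeq2 called none of 149, against 0.0455% of all genes. Host groups did not overlap for 3 of 29, Traj27, Traj49 and Trav7-6, all higher in Asbt-/- hosts (10.3%, against 2.71% of all genes). Traj49 and Trav7-6 passed the count filter through Asbt-/- libraries only, the group in which they were high. The shares of 17.2% and 10.3% hold members selected in this way, so they are descriptions only. Traj27 averaged 12.6 ± 2.26 CPM in Asbt-/- hosts and 5.71 ± 1.94 CPM in Asbt+/+ hosts. Trav7-6 had 105 counts over the 4 Asbt-/- libraries and 0 over the 4 Asbt+/+ libraries, at least 35.3-fold higher against a floor of 3 counts over the group, and 75 of the 105 came from 1 library. Summed Trav reads were at 61.8, 76.6, 88.6 and 56.5 CPM in Asbt-/- hosts and 34.7, 31.9, 34.1 and 38.3 CPM in Asbt+/+ hosts, and did not overlap. The hosts overlapped for the sums of Traj, Trbv, Trbj, gamma and delta segments, of gamma constant genes and of Trbc1 plus Trbc2. The Trav sum overlapped between tissues and between hairpins. Its lack of overlap between hosts was not tested and is a description only.

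Effects did not pass a test of difference between tissues. The smallest edgeR adjusted p among the receptor genes was 1 for the dependence of the hairpin effect on tissue and 0.937 for that of the host effect, in a fit with 2 residual degrees of freedom.

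Genes that act with the receptor were described from lists. Of the CD3 complex and coreceptors 6 of 7 were tested and 0 passed in any comparison. Their median log2 fold change for tissue was 0.58. Cd3e had the smallest p, with 0.73 ± 0.23 and an edgeR adjusted p of 0.355, and Cd8a had the largest fold change, with 3.86 ± 1.58 and an edgeR adjusted p of 0.534. Of 30 genes of proximal signalling 28 were tested and 0 passed in any comparison. Ptpn22, a phosphatase that restrains receptor signalling, had the smallest p for tissue, with 1.07 ± 0.26 and an edgeR adjusted p of 0.135. All 13 transcription factors of the receptor loci were tested and 0 passed. Gata3, a factor of T cell development and type 2 help, had a log2 fold change of -1.13 ± 0.41 for hairpin, with an edgeR adjusted p of 0.999. The recombinase genes Rag1 and Rag2 had no count in any library, Dntt, which adds bases at the junctions, had 13 and Ptcra, the partner of the immature beta chain, 1.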

How the data were processed

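Gene counts were made from 8 mouse RNA sequencing libraries, prepared with a SMART-Seq kit for very low input and a NEBNext kit, per the labels' protocols. The authors deposited whole-number counts of reads for each gene. TopHat, HTSeq, DESeq2 and the build mm9 were used, per the submitters' processing notes; versions, roles, strand setting and annotation were not given in the sources used here. Counts of near-identical copies (Trbc1 and Trbc2, duplicated Trav segments, Tcrg-C1, Tcrg-C2 and Tcrg-C3) and of overlapping genes are therefore uncertain, and no coordinates are given.

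Of 37411 genes, 17570 had a count and filterByExpr kept 10000, with 99.5% of all reads counted. After TMM scaling the counts were fitted with edgeR 4.0.16 (R 4.3.3) by the quasi-likelihood test, with tissue, hairpin and host as terms (4 residual degrees of freedom), and p-values were Benjamini-Hochberg adjusted over all genes at 0.05. SEs are the log2 fold change over the square root of F. Separate hairpin and host effects in each tissue left 2 residual degrees of freedom. DESeq2 1.42.0 was an alternative, beside other size factors, no filter, and leaving out libraries. The fit was tested on simulated counts. Shares within a segment class have 95% Wilson intervals. Windows of 50 bases were compared among GENCODE vM21 transcripts (GRCm38), from which sequences were also read.

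The members, gene lists and rules for naming genes were chosen with earlier results of these data known. Named were all constant genes, the segments with the largest mean share or the largest share in a library, segments of invariant receptors, the members with the smallest p in each direction of a comparison, and those most like Trac. Other genes in the text were chosen after their values were seen. No p is given for sums or shares.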

Additional observations from a re-analysis of the deposited data

Results flagged for a closer look

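Within each tissue's 4 libraries, the highest and lowest value of 80 sets of values were compared with the other 3, and 13 stood far from them by Dixon's ratio. Chance gives about 1 in 20 for independent, normally distributed values. Sets with the other 3 libraries at 0 and sets that share genes, such as Trgv2 and the gamma sum, do not meet this, so the number is not read against it.

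Gamma genes gave 5 of these values, all in the shMdr1 Asbt+/+ libraries. In small intestine, Tcrg-C4 was at 82.8 CPM against 0.792 to 11.6 in the other 3 libraries, Trgv2 at 46.2 CPM against 2.37 to 6.38, and the sum of gamma variable and joining segments at 64.8 CPM against 3.55 to 9.98. In spleen, Tcrg-C2 was at 109 CPM against 3.08 to 20.6 and Trgv2 at 9.99 CPM against 0.479 to 0.860.

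Alpha segments gave 6 more. Trav7-6 was at 29.7 CPM in shMdr1 Asbt-/- small intestine against 0 to 0.798, and at 14.8 CPM in shMdr1 Asbt-/- spleen against 0 to 1.92. Trav16 was at 15.4 CPM in shMdr1 Asbt+/+ small intestine against 0 in the other 3, and at 6.77 CPM in shMdr1 Asbt-/- spleen against 0.416 to 0.479. Trav14d-3-dv8 was at 2.79 CPM in shCD8 Asbt-/- small intestine against 0, and the Trav inverse Simpson number of that library was 18.0 against 3.46 to 4.15.

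In the beta chain, Trbv3 was at 33.5 CPM in shCD8 Asbt-/- small intestine against 0.394 to 1.58, and the largest Trbj share was 40.7% in shMdr1 Asbt+/+ spleen against 21.9 to 24.1%.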

How the results depend on the processing

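For tissue, 0 receptor genes passed in the fit of all libraries, 2 with DESeq2's Wald test, 2 with no filter on low counts (Tcrg-C1 and Tcrg-C2) and 0 to 1 when each library was left out. Over all genes the 62 calls became 264 with DESeq2, 165 with no filter, 40 without both small intestine Asbt+/+ libraries and 12 to 145 when each library was left out, the lowest without shMdr1 Asbt+/+ small intestine and the highest without shCD8 Asbt+/+ small intestine. For hairpin, the 0 calls over all genes became 4 with DESeq2 and 9 with no filter. For host they became 8 with DESeq2, 14 with no filter and 0 to 4 when each library was left out, and 1 receptor gene passed with no filter (Tcrg-C2, edgeR adjusted p 0.00752). Log2 fold changes of 7 gene and comparison pairs changed sign when each library was left out, none of them past the threshold. They ran from -0.15 to 0.19 for Trbc1 and -0.36 to 1.36 for Tcrg-C4 in tissue. For hairpin they ran from -0.038 to 0.53 for Tcrg-C1, -0.28 to 1.11 for Tcrg-C2 and -0.81 to 1.00 for Tcrg-C4. For host they ran from -0.031 to 0.75 for Trac and -0.077 to 0.16 for Trbc2. Without both small intestine Asbt+/+ libraries, Tcrg-C4 in hairpin was -0.93 and Trbc2 in host -0.18. The cause was not tested. A total of 355 other fold changes kept their direction and side of the threshold and 7 passed it. With only segments of at least 10 counts, or without Trbv12-2, 18 inverse Simpson numbers moved by more than the spread between libraries and 16 did not. With Trbv12-2 left out, chosen after seeing the data, the Trbv inverse Simpson number was 3.90 to 11.7, against 2.56 to 9.16. No paired analysis by replicate number was possible because the labels give none; with each matched library pair as a block, 54 genes and 0 receptor genes passed for tissue. Most segments have under 100 counts per library, so their shares have wide intervals.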

Other observations

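Among the tested receptor genes, the 2 whose log2 CPM over the 8 libraries was most like that of Trac were Trbv2 (Pearson r = 0.743) and Trbv13-3 (r = 0.688). Trbv2 was at 0.792, 26.7, 20.5 and 15.8 CPM in small intestine and 3.08, 0, 6.24 and 1.72 CPM in spleen, and Trbv13-3 at 1.58, 13.6, 19.9 and 3.16 CPM in small intestine and 10.5, 5.75, 4.58 and 5.16 CPM in spleen, in the order shMdr1 Asbt-/-, shCD8 Asbt-/-, shMdr1 Asbt+/+ and shCD8 Asbt+/+. The 8 points share depth and library quality, and the correlation is a description.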
